A study of Mus musculus with 2 samples.

Results

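In the wild-type library of a single-nucleus RNA-seq study of interscapular brown adipose tissue (BAT), 3016 of 12846 barcodes were shallow and rich in mitochondrial transcripts. They were chosen by 3 measured values: at least 200 genes, under 1500 unique molecular identifiers (UMIs, 1 per captured RNA molecule) and 1.5% to 10% of UMIs from genes with a symbol starting mt-. They made up 23.5% of the WT barcodes (95% exact binomial interval 22.7 to 24.2) and the 2 genotypes together had 24341 barcodes. The barcodes chosen are called mt-rich droplets below, because their depth and mitochondrial share, not a cell type, define them.

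The study compared 8-week-old WT mice, which carried Srsf1 flox/flox, with SRSF1_KO mice, which carried the same floxed alleles and Adipoq-Cre. The Adipoq promoter drives Cre in mature adipocytes, so other cell types of the knockout were not targeted. Nuclei were released from fresh tissue in a lysis buffer, filtered and loaded for droplet-based sequencing. There was 1 library per genotype, the number of mice in each was not given in the sources used here, and barcodes are not replicates, so no test over barcodes was made. The intervals below are 95% intervals that cover counting error only.

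Mitochondria carry their own small genome, which encodes core subunits of the respiratory chain and the ATP synthase. The remaining subunits of these oxidative phosphorylation (OXPHOS) complexes are encoded in the nucleus, transcribed there, and translated in the cytoplasm. Brown adipocytes are packed with mitochondria and burn fuel for heat through Ucp1, the uncoupling protein of their inner membrane. In a suspension of nuclei, mitochondrial transcripts lie outside the nucleus, whereas RNAs such as Malat1 are retained inside it.

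The 3016 mt-rich droplets held 750 to 1499 UMIs with a median of 975.5, and 489 to 1079 genes with a median of 689.5. Their mt- UMIs ranged from 12 to 131 per barcode with a median of 26, which was a median of 2.56% of their UMIs. Together they held 3081145 UMIs, 3.31% of the library, but 86231 mt- UMIs, 10.7% of the mt- UMIs of the library. The 356 WT barcodes under 1500 UMIs and under 1.5% mt- UMIs, called low-mt droplets here, were somewhat deeper, with medians of 1189 UMIs, 828.5 genes and 14 mt- UMIs. A further 10 shallow WT barcodes lay above 10%.

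No gap separated the mt-rich droplets from their neighbours. Just inside the lower mitochondrial limit, at 1.5% to 1.6%, were 88 barcodes with a median of 18 mt- UMIs, and just outside it, at 1.4% to 1.5%, were 99 with a median of 17. Just inside the depth limit, from 1400 to under 1500 UMIs, were 180 barcodes with a median of 31 mt- UMIs, and 170 with a median of 33 lay from 1500 to under 1600. Their mitochondrial shares were 2.16% and 2.14%. At the upper end, 16 barcodes lay at 8% to 10% and 10 lay above.

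The number of mt- UMIs per barcode differed less between WT depth classes than the total did, so that the mitochondrial share was high where the total was low. The median was 23 mt- UMIs in barcodes under 1000 UMIs, 28 from 1500 to under 2000, 31 from 2000 to under 3000 and 56 from 6000 to under 10000. The median total was 862 UMIs in the first and 7452.5 in the last of these classes, and the median share 2.65% and 0.755%. Deeper still, the median was 84 mt- UMIs from 10000 to under 20000 UMIs and 195 at 20000 or more. In the lowest class, 93.5% of all WT barcodes lay within the 1.5% to 10% window, against 58.4% from 1500 to under 2000 UMIs and 2.99% from 6000 to under 10000.

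**Figure D1:**
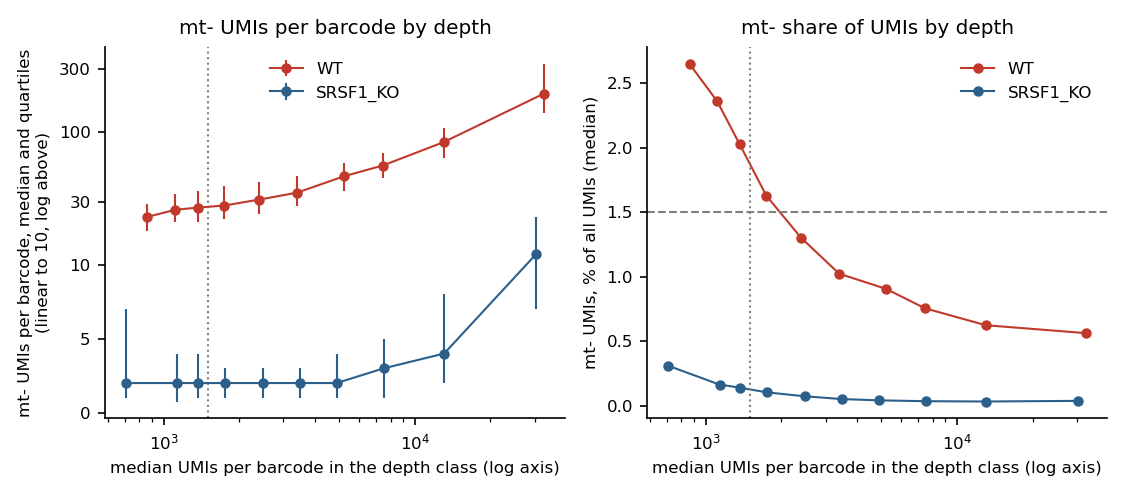
Left, mt- UMIs per barcode (median and quartiles, scale linear to 10 and logarithmic above) against the median UMIs of 10 depth classes (log axis) in WT and SRSF1_KO; right, the median mt- share in percent, with dotted lines at 1500 UMIs and a dashed line at 1.5%. The WT count rose from 23 to 195 over the whole range while the share fell from 2.65% to 0.562%; the knockout stayed at 2 mt- UMIs up to the class from 4000 to under 6000 UMIs.

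Several other groups of transcripts also differed less in count per WT barcode than the total did, to different degrees. Barcodes from 6000 to under 10000 UMIs held on average 7.44 times as many UMIs as the mt-rich droplets. For Gm42418, a transcript that overlaps ribosomal RNA, the mean was 89.1 UMIs in the mt-rich droplets and 112 in the deeper barcodes, 1.26 times as many. The 4 haemoglobin genes, the oxygen carriers of red cells, were at a mean of 0.735 and 0.624 UMIs, and the 8 skeletal muscle markers at 0.804 and 0.984. The mt- genes were at 2.11 times the mean of the mt-rich droplets, the 76 cytosolic ribosomal protein genes at 2.43 times and the 84 nuclear OXPHOS genes at 3.38 times.

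Nuclear and thermogenic transcripts stood closer to the total or above it. Malat1, a noncoding RNA retained in the nucleus, was at a mean of 37.8 UMIs in the mt-rich droplets and 316 in the deeper barcodes, 8.36 times as many. Neat1, which builds nuclear paraspeckles, was at 13.3 times. The 10 thermogenic genes were at 12.6 times, with means of 7.65 and 96.3 UMIs, and Ucp1 at 7.06 times. These values also carry the change in cell types with depth, since adipocyte markers were at 10.5 times, and depth and cell type cannot be told apart here.

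**Figure D2:**
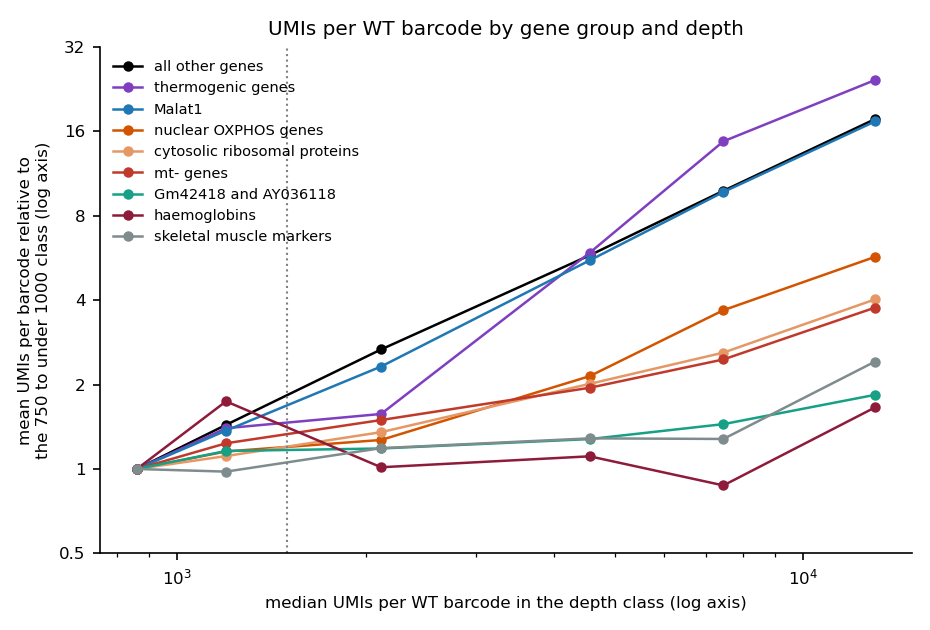
Mean UMIs per WT barcode of each gene group, divided by its mean in the class from 750 to under 1000 UMIs (log axis), against the median UMIs of 6 depth classes (log axis), with a dotted line at 1500 UMIs. Malat1 runs with all other genes, while Gm42418 with AY036118, haemoglobins and skeletal muscle markers stay nearly flat to under 10000 UMIs and mt-, ribosomal protein and nuclear OXPHOS genes lie between. The haemoglobin point of the class from 1000 to under 1500 UMIs holds 1 barcode with 811 haemoglobin UMIs.

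To compare the remaining genes, UMIs were summed over the barcodes of a set and scaled to 1000000 UMIs that are not mt- UMIs (CPM). Against the low-mt droplets, 3463 genes had at least 200 UMIs over both sets and 20 in each, and their median log2 ratio was -0.05. At least 2-fold higher in the mt-rich droplets were 5 genes (0.144% of those compared), and at least 2-fold lower were also 5 (0.144%). The higher genes were Gm11867, an uncharacterised transcript, at a log2 ratio of 1.70 (1.21 to 2.23), Ttn, the giant spring protein of striated muscle, at 1.42 (1.05 to 1.82), Ndufb8, an accessory subunit of complex I, at 1.39 (0.88 to 1.95), Gapdh, a glycolytic enzyme, at 1.04 (0.64 to 1.47), and Cox7a1 at 1.02 (0.56 to 1.51). The low-mt droplets were deeper than the mt-rich ones, so depth moves with this comparison. Its part in the ratios was not tested.

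Nearly all nuclear OXPHOS genes had a higher level in the mt-rich droplets. Of 84, 76 could be compared, 75 had a log2 ratio above 0 and 2 were at least 2-fold higher, with a median of 0.49, where 43.1% of all compared genes were above 0. Summed, they reached 16518 CPM (16372 to 16664) in the mt-rich droplets and 12039 CPM (11703 to 12381) in the low-mt droplets, a log2 ratio of 0.46 (0.41 to 0.50). The medians by complex were 0.57 for the NADH dehydrogenase complex I, 0.30 for the succinate dehydrogenase complex II, 0.44 for the cytochrome bc1 complex III, 0.49 for the cytochrome c oxidase complex IV and 0.46 for the ATP synthase complex V. The 1 gene below 0 was Ndufs4, an accessory subunit of complex I, at -0.15 (-0.41 to 0.12). The pattern was not particular to OXPHOS genes. Of 60 cytosolic ribosomal protein genes compared, 58 were above 0, with a median of 0.44. All 7 abundant cytoplasmic mRNAs were above 0, with a median of 0.59. Of 6 mitochondrial ribosomal protein genes compared, 5 were above 0, with a median of 0.14.

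Of the 3 nuclear-encoded genes given as markers of these droplets, Cox8b and Cox7a1 belong to cytochrome c oxidase, the last enzyme of the respiratory chain. Cox8b, its isoform of heart, muscle and brown fat, was at 540 CPM in the mt-rich droplets (514 to 567), 347 in the low-mt droplets and 83.5 in WT barcodes of 6000 or more UMIs. Cox7a1, also a muscle and brown fat isoform, was at 205, 101 and 32.6 CPM in the same sets. Their widely expressed counterparts Cox8a, at 337, 263 and 90.3 CPM, and Cox7a2, at 178, 128 and 53.2 CPM, had the same order.

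The ratio of tissue isoform to counterpart was highest in the mt-rich droplets among the WT depth classes. The mt-rich droplets held 1617 Cox8b and 1010 Cox8a UMIs, a ratio of 1.60 (1.48 to 1.73), against 1.32 (1.02 to 1.71) in the low-mt droplets, 1.41 (1.30 to 1.54) from 1500 to under 3000 UMIs and 0.925 (0.893 to 0.958) at 6000 or more. For Cox7a1 to Cox7a2 the ratio was 1.15 (1.02 to 1.30) in the mt-rich droplets, 0.788 (0.511 to 1.21) in the low-mt droplets, 0.956 (0.849 to 1.08) from 1500 to under 3000 UMIs and 0.612 (0.581 to 0.644) at 6000 or more. For both pairs the interval of the mt-rich droplets overlapped those of the low-mt droplets and of the barcodes from 1500 to under 3000 UMIs, and did not overlap that of the deep barcodes.

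Against the sum of all WT barcodes, which includes the mt-rich droplets as 3.24% of its non-mt- UMIs, 10938 genes could be compared, and their median log2 ratio was 0.02. At least 2-fold higher were 724 genes (6.62%), and at least 2-fold lower were 35 (0.32%). Of the nuclear OXPHOS genes, 60 of the 79 compared were at least 2-fold higher, including 12 of 12 of complex IV and 27 of 37 of complex I, with a median of 1.42. When every barcode was weighted equally in place of summing UMIs, only 70 genes were at least 2-fold higher and 1 lower. WT barcodes of 6000 or more UMIs held 79.8% of the UMIs in the sum.

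Transcripts of the cytoplasm had high ratios. Of the 76 cytosolic ribosomal protein genes, which build the translating ribosome, 74 were at least 2-fold higher than in all WT barcodes, with a median of 1.60, and their sum was 7843 CPM against 2611. All 7 abundant cytoplasmic mRNAs were too, with a median of 1.69, among them Actb, the cytoskeletal actin, at 1.89 and Eef1a1, a translation elongation factor, at 1.37. With equal weights the log2 ratios of the sums were below 2-fold, at 0.85 for cytosolic ribosomal protein genes (1.59 when summed), 0.87 for cytoplasmic mRNAs (1.69) and 0.76 for nuclear OXPHOS genes (1.24). Of 76 mitochondrial ribosomal protein genes compared, 23 passed, with a median of 0.51. The 5 nuclear noncoding RNAs lay below 0 with a median of -0.33, Malat1 at -0.11 and Neat1 at -0.64.

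Ratios against all WT barcodes were higher for shorter genes. Genes spanning under 3 kb in the GENCODE annotation had a median log2 ratio of 1.04 against all WT barcodes, and 184 of 363 were at least 2-fold higher. The median was 0.37 at 3 to 10 kb, 0.05 at 10 to 30 kb, -0.08 at 30 to 100 kb and -0.13 beyond. The median span was 5.28 kb for the 724 higher genes, 22.8 kb for the 35 lower genes and 29.1 kb for all compared. Long noncoding RNAs made up 51.4% of the lower genes, 3.18% of the higher and 6.84% of all compared. Ratios against the low-mt droplets were also higher for shorter genes, with medians of 0.44 under 3 kb, 0.36 at 3 to 10 kb and -0.14 beyond 100 kb. These are descriptions across genes, which are not independent replicates.

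**Figure D3:**
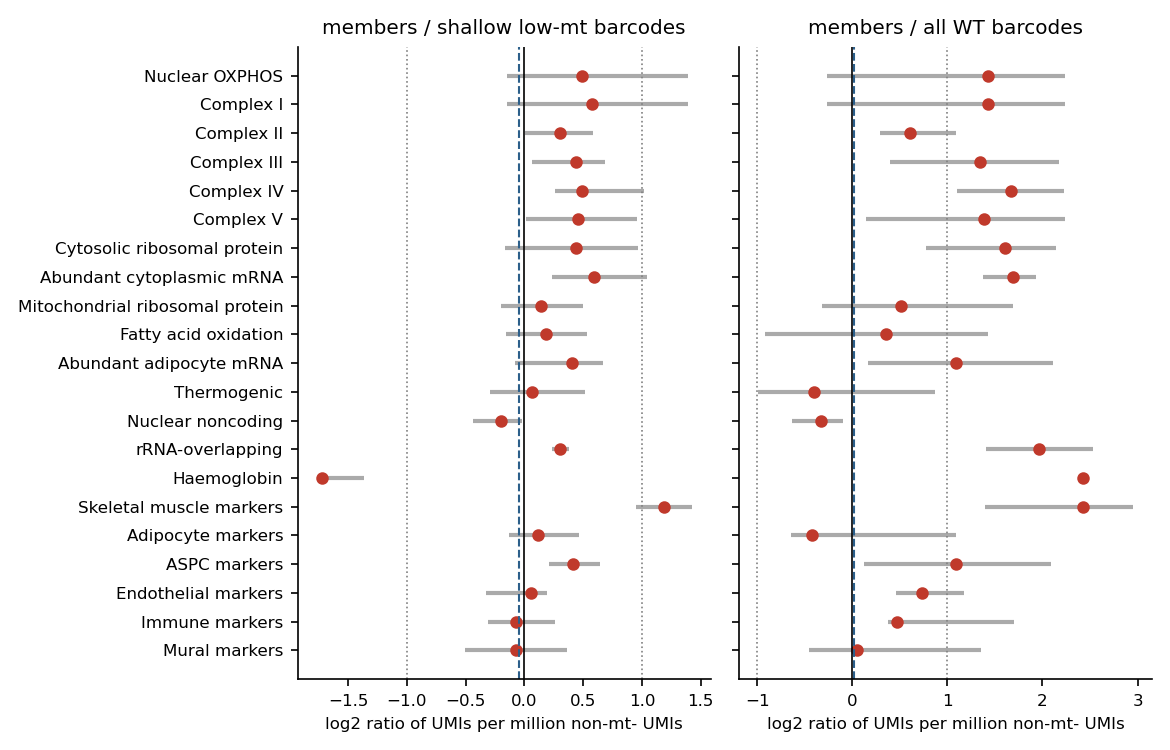
Median (point) and range (bar) of the log2 ratio over the compared genes of each list, for the mt-rich droplets (labelled members) against low-mt droplets (left) and against all WT barcodes (right), in UMIs per 1000000 non-mt- UMIs. The dashed line is the median of all compared genes and the dotted lines mark 2-fold; the medians of nuclear OXPHOS were 0.49 and 1.42, and the haemoglobin points turn from -1.73 to 2.42.

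Thermogenic genes and abundant adipocyte mRNAs differed in their ratios. Of the 10 thermogenic genes compared with all WT barcodes, 2 had a log2 ratio above 0 and 0 were past 2-fold, with a median of -0.40. Among all genes compared, 51.5% were above 0 and 6.62% at least 2-fold higher. The 2 thermogenic genes above 0 were Elovl3, a fatty acid elongase induced by cold, at 0.87 and Ucp1 at 0.32 (0.29 to 0.36). Ppargc1a, the coactivator that drives mitochondrial biogenesis, was at -0.82, Prdm16, a brown fat determination factor, at -0.91 and Esrrg, an orphan nuclear receptor of oxidative metabolism, at -0.99. Of the abundant adipocyte mRNAs, 5 of 9 were at least 2-fold higher, with Cfd, the serum protease adipsin, at 2.11, Scd1, a fatty acid desaturase, at 1.65 and Fabp4, a fatty acid carrier, at 1.09. Of the 12 fatty acid oxidation genes, 2 were at least 2-fold higher, with a median of 0.35. Of the 8 immediate early genes compared, which respond to stress within minutes, 0 were past 2-fold, with a median of 0.58. Summed, the thermogenic genes stood at 7704 CPM in the mt-rich droplets and 8005 in the low-mt droplets. They stood at 4852 CPM in WT barcodes from 1500 to under 3000 UMIs, 8618 from 3000 to under 6000 and 11984 at 6000 or more.

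Cell type markers were also set against all WT barcodes, where 6.62% of all compared genes were at least 2-fold higher and 51.5% above 0. The median log2 ratio was 1.09 for adipose stem and progenitor cells (ASPC, 5 of 9 at least 2-fold higher) and 0.73 for endothelium (2 of 9). It was 0.47 for immune cells (2 of 9), 0.05 for mural cells (2 of 8), 0.50 for Schwann cells (1 of 5) and -0.43 for adipocytes (1 of 11). The direction of 2 lists turned when barcodes were weighted equally, from log2 ratios of the sums of 0.66 to -0.17 for endothelium and of 0.29 to -0.11 for mural cells. Summed, the adipocyte markers stood at 9640 CPM in the mt-rich droplets and 9327 in the low-mt droplets. They stood at 7226 CPM in WT barcodes from 1500 to under 3000 UMIs and 12619 at 6000 or more.

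Markers of several cell types were found together in the mt-rich droplets. After every barcode had been thinned to 750 UMIs, at least 1 UMI of the adipocyte marker list was found in 99.6% of the mt-rich droplets, of the endothelial list in 66.1%, of the ASPC list in 43.5%, of the immune list in 34.4% and of the mural list in 21.2%. In the adipocyte-like clusters the last 4 shares were 12.5%, 8.33%, 5.06% and 5.51%. Without thinning the same 4 lists had a UMI in 74.2%, 51.7%, 41.1% and 27.1% of the mt-rich droplets and in 61.2%, 47.8%, 33.5% and 39.2% of the deeper adipocyte-like barcodes. A mean of 2.65 of these 5 lists had a UMI in an mt-rich droplet, which restates the 5 shares and does not measure joint presence. The mean was 2.45 in a low-mt droplet, 2.37 in WT barcodes from 1500 to under 3000 UMIs and 2.08 over all WT barcodes. It was 1.31 in an adipocyte-like, 2.38 in an endothelial-like and 2.64 in a mural-like barcode. Of 5 lists, 4 or 5 were found in 14.3% and 2.49% of the mt-rich droplets and in 6.16% and 0.81% of all WT barcodes. The shares were 0.25% and 0.025% for adipocyte-like barcodes, but 14.4% and 1.56% for mural-like barcodes.

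The spread of the marker counts differed between lists and sets. At 750 UMIs, the variance over the mt-rich droplets was 1.52 times the mean for the adipocyte list, 2.77 for the endothelial, 2.11 for the immune, 1.98 for the mural and 2.18 for the ASPC list. Over all WT barcodes, which mix cell types, the same values were 2.73, 5.10, 4.05, 4.66 and 2.69. Over the low-mt droplets they were 1.78, 3.86, 3.09, 2.22 and 1.76, so that the ASPC list was less even in the mt-rich droplets. Skeletal muscle markers were at 36.9 in the mt-rich droplets, 1.38 in the low-mt droplets and 42.1 over all WT barcodes. Counting error alone gives a ratio near 1.

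Ucp1 UMIs were found in every class of barcode. Thinned, the share with a Ucp1 UMI was 72.2% in the mt-rich droplets, whose median depth was 975.5 UMIs, and 70.0% in adipocyte-like barcodes, whose median was 6919. In endothelial-like barcodes, which should lack it and had a median of 2342.5 UMIs, the share was 49.8%, and in immune-like barcodes it was 41.8%. Without thinning the first 3 shares were 81.3%, 98.1% and 82.0%. Pecam1, an adhesion protein of the endothelium, was found in 12.1% of the mt-rich droplets, 32.3% of endothelial-like and 1.81% of adipocyte-like barcodes, or 15.5%, 67.0% and 10.6% without thinning. Cox8b was found in 32.9% of the mt-rich droplets, in 21.3% of the low-mt droplets, in 10.4% of adipocyte-like and in 16.3% of endothelial-like barcodes. Without thinning these shares were 40.1%, 32.9%, 56.3% and 44.3%. The cluster classes here and above include the mt-rich droplets that fell in them. These were 645 of 3456 endothelial-like, 198 of 1027 immune-like, 54 of 577 mural-like and 89 of 3972 adipocyte-like barcodes.

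Clusters made without mt- genes still gathered most of the mt-rich droplets. Of the 3016, 1876 (62.2%, 60.4 to 63.9) fell in 1 of 16 clusters, which held 2364 barcodes with a median of 982.5 UMIs, 79.4% of them mt-rich. Of the 356 low-mt droplets, 176 (49.4%) fell there as well. The cluster was left without a cell type name: haemoglobin genes led it, but only 38.2% of its barcodes held a UMI of the red cell markers. A further 645 mt-rich droplets (21.4%) fell in endothelial-like clusters, 198 (6.56%) in the immune-like, 89 (2.95%) in the adipocyte-like, 66 in the ASPC-like and 54 in the mural-like clusters.

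The OXPHOS and Gm42418 levels were high wherever the mt-rich droplets clustered. In the largest cluster, nuclear OXPHOS genes summed to 18030 CPM in the mt-rich droplets and 12577 in its other 488 barcodes. The values were 14273 and 6905 in the endothelial-like clusters, and 14316 and 5519 in the immune-like cluster. All WT barcodes of 6000 or more UMIs stood at 6396 CPM. Gm42418 with AY036118, which also overlaps ribosomal RNA, reached 96775 CPM against 54061 in the largest cluster. In the endothelial-like clusters the values were 87407 and 21668, and in the immune-like cluster 91936 and 15881. In the endothelial-like clusters the endothelial markers were at 5705 CPM in the mt-rich droplets and 5048 in the other barcodes. For the immune, mural and ASPC markers in their clusters the values were 3591 and 3517, 3978 and 3048, and 2895 and 922. For the adipocyte markers they were 12875 and 14915. The clusters were made from expression and named by these markers, so their levels there are not independent of the clustering. Depth differed too, with medians of 934 and 1606.5 UMIs in the largest cluster and 1065 and 2673 in the endothelial-like clusters. Its part in the OXPHOS and Gm42418 levels was not tested.

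Haemoglobin levels were set by few barcodes in the comparison with low-mt droplets. Hbb-bs, the adult beta chain, was at 346 CPM in the mt-rich droplets, 1133 in the low-mt droplets and 64.1 in all WT barcodes. A single low-mt barcode held 811 of the 949 haemoglobin UMIs of its set, and 10 mt-rich barcodes held 694 of 2218. With the haemoglobin UMIs of barcodes holding 20 or more of them taken out, the haemoglobins stood at 509 CPM in the mt-rich droplets, 340 in the low-mt droplets and 88.2 in all WT barcodes. Without those barcodes the log2 ratio to the low-mt droplets turned from -1.66 to 0.58. Against all WT barcodes the haemoglobin log2 ratio was 2.42, and 0.99 with barcodes weighted equally. In the comparison with low-mt droplets, the 4 haemoglobin genes made up 4 of the 5 genes at least 2-fold lower. The remaining 1 was Rgs6, a regulator of G protein signalling, at -1.12 (-1.55 to -0.68). Of the other red cell markers, Alas2, the first enzyme of erythroid haem synthesis, had 65 UMIs in all mt-rich droplets. Its log2 ratio to all WT barcodes was -0.42, opposite in sign to that of the haemoglobins. Slc4a1, an anion exchanger of the red cell membrane, had 3 UMIs in the mt-rich droplets.

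Skeletal muscle markers also sat in few barcodes. Of their 2426 UMIs in the mt-rich droplets, 14 barcodes held 1087. The log2 ratio of their sum to the low-mt droplets was 1.19 (0.95 to 1.44) with these barcodes and 0.34 without them, and that of Ttn was 1.42 and 0.28. Against all WT barcodes it was 2.35 with and 2.56 without barcodes of 20 or more muscle marker UMIs in either set, and 1.13 with barcodes weighted equally. Myh4, a fast myosin heavy chain, was at 242 CPM in the mt-rich droplets and 31.3 in all WT barcodes.

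Within the mt-rich droplets, several groups stood higher at a higher mitochondrial share, and Malat1, the thermogenic genes as a sum and the endothelial markers did not. From the 618 barcodes at 1.5% to 2% to the 140 at 5% to 10%, the nuclear OXPHOS sum went from 14187 to 28389 CPM, cytosolic ribosomal protein genes from 6517 to 14210, Cox7a1 from 158 to 441 and Cox8b from 451 to 963. Gm42418 with AY036118 went from 86919 to 103440. Malat1 was at 37967 and 34819 CPM and the endothelial markers at 2288 and 2218. Thermogenic genes were at 8226 (8009 to 8447) and 7086 (6642 to 7552), although Ucp1, 1 of them, was at 1718 and 2382. Haemoglobins went from 338 to 4458 CPM, and from 339 to 1430 without barcodes rich in haemoglobin or muscle UMIs. Skeletal muscle markers went from 504 to 2628 CPM, but stood at 469 and 389 without those barcodes. Because the mitochondrial share chose the barcodes, these gradients are a description.

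**Figure D4:**
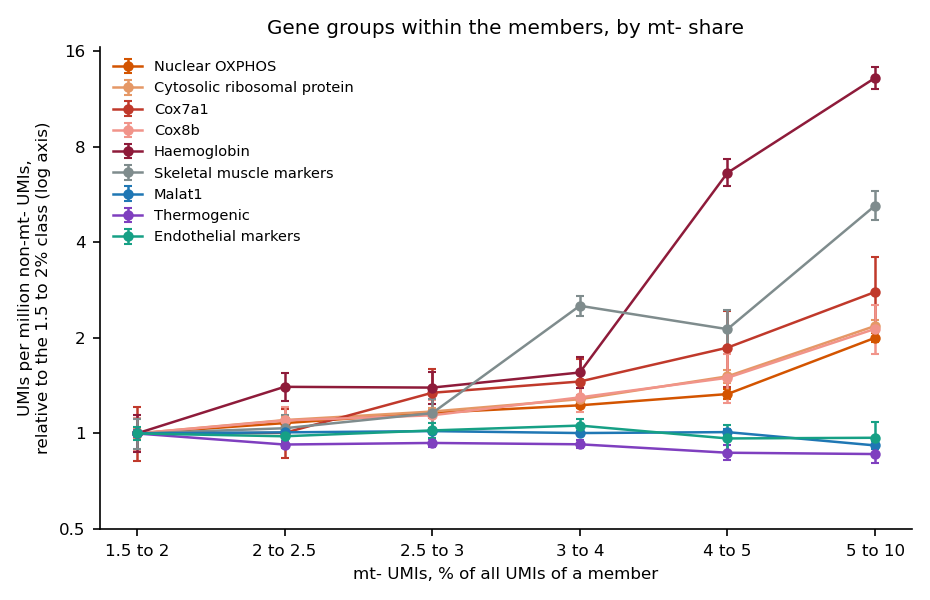
CPM of each gene group within the mt-rich droplets by class of mt- share, divided by its value in the 1.5 to 2% class (log axis); bars are exact 95% Poisson intervals of the summed UMIs. Nuclear OXPHOS went from 14187 to 28389 CPM, while Malat1, thermogenic genes and endothelial markers were not higher in the last class than in the first. Every class holds at least 1 barcode with 20 or more haemoglobin or muscle UMIs, and those above 3% hold 6 to 8.

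The make-up of the mitochondrial transcripts differed from that of deep barcodes. mt-Nd6, the only protein gene of the light strand, took 1.46% of the mt- UMIs of the mt-rich droplets and 0.755% of those of WT barcodes of 6000 or more UMIs, a log2 ratio of 0.95 (0.86 to 1.04). The complex I subunits mt-Nd5, at 4.70% and 2.70%, and mt-Nd4l, at 1.60% and 0.915%, and the marker mt-Nd2, at 11.9% and 9.36%, took larger shares too. mt-Atp6, a subunit of the ATP synthase, at 10.0% and 12.5%, and mt-Co1, the catalytic subunit of cytochrome c oxidase, at 15.2% and 17.6%, took smaller ones. The low-mt droplets lay on the side of the mt-rich ones for mt-Nd6 (1.93%), mt-Nd5 (4.34%) and mt-Atp6 (9.82%). For mt-Co1, at 16.5%, they lay between the mt-rich and the deep barcodes. The WT depth classes between also had intermediate shares. From 1500 to under 3000 UMIs, mt-Nd6 took 1.34%, mt-Nd5 4.39% and mt-Nd2 11.4%. From 3000 to under 6000 UMIs these took 1.02%, 3.53% and 10.6%.

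**Figure D5:**
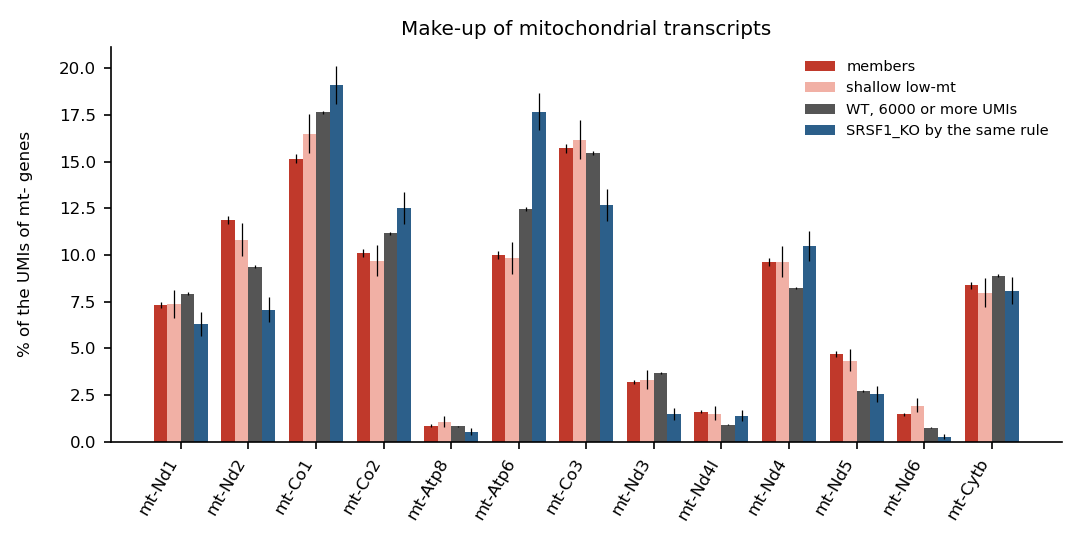
Share of the UMIs of all mt- genes taken by each protein-coding gene, in percent, in the mt-rich droplets (labelled members), low-mt droplets, WT barcodes of 6000 or more UMIs and SRSF1_KO barcodes chosen by the same rule; error bars are exact 95% binomial intervals. mt-Nd6 took 1.46% in the mt-rich droplets and 0.755% in deep WT barcodes, and mt-Atp6 10.0% and 12.5%.

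In the SRSF1_KO library the same rule found 207 of 11495 barcodes (1.80%, 1.57 to 2.06). They started at 500 UMIs in place of 750 in WT, with a median of 761 UMIs, 565 genes and 20 mt- UMIs, and another 1448 shallow knockout barcodes had under 1.5% mt- UMIs. Srsf1 itself, the splicing factor targeted, was at 166 CPM in the mt-rich WT droplets, 170 in all WT barcodes, 96.9 in the knockout barcodes chosen and 66.9 in all knockout barcodes. Since each genotype is 1 library, genotype and library cannot be told apart in what follows.

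The knockout barcodes chosen differed from the mt-rich WT droplets in most groups, but the rule took unlike parts of the libraries. Among barcodes under 1000 UMIs, 93.5% in WT and 15.8% in the knockout lay within the mitochondrial window. The median mitochondrial shares there were 2.65% and 0.31%. Of the 207 knockout barcodes, 109 reached 750 UMIs, the depth at which WT barcodes started. The part of these limits in the contrasts was not tested. In the knockout barcodes chosen, nuclear OXPHOS genes were at 12298 CPM, below the 16518 of WT. Cytosolic ribosomal protein genes were at 25401 against 7843, haemoglobins at 3397 against 741 and ASPC markers at 5335 against 850. Thermogenic genes were at 769 against 7704 CPM, with Ucp1 at 170 against 1811. The whole libraries also differed. Over all knockout and all WT barcodes, thermogenic genes were at 930 and 11050 CPM. Nuclear OXPHOS genes were at 2383 and 6995 and ASPC markers at 1436 and 422. Cytosolic ribosomal protein genes, at 2196 and 2611, and haemoglobins, at 85.7 and 138, differed the other way from the barcodes chosen. In the knockout barcodes chosen, Cox8b to Cox8a stood at 0.387 (0.243 to 0.601) against 1.60 in the mt-rich WT droplets. Cox7a1 to Cox7a2 stood at 0.205 (0.0828 to 0.445) against 1.15. In barcodes of 6000 or more UMIs these ratios were 0.217 and 0.102 in the knockout and 0.925 and 0.612 in WT. In the knockout barcodes chosen, mt-Nd2 took 7.04% of the mt- UMIs against 11.9%, and mt-Atp6 17.7% against 10.0%. Over all knockout and all WT barcodes, mt-Nd2 took 7.32% and 10.0%, and mt-Atp6 16.3% and 11.9%. The libraries shared 52 barcode sequences, and 16 of these were mt-rich droplets in WT.

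Over the 3463 genes, log2 CPM of the mt-rich droplets correlated at 0.961 with the low-mt droplets, 0.881 with WT barcodes from 1500 to under 3000 UMIs, 0.910 with those from 3000 to under 6000 and 0.845 with those of 6000 or more. The UMI minimum that chose the 3463 genes was set on the mt-rich and low-mt droplets only, not on the deeper sets. These correlations are across genes of 1 library and are given without a test.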

How the data were processed

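Droplet-based single-nucleus RNA-seq was measured in 1 WT and 1 SRSF1_KO library. The deposited values are unnormalized UMI counts for each gene in each barcode; the authors obtained them by aligning reads to GRCm38 (mm10) and counting with Cell Ranger. The submitters' processing notes name Cell Ranger 5.0.0 and Seurat 3.1.1, whereas the study's methods name an earlier Cell Ranger version. Whether intronic reads were counted is not given in the sources used here. The WT file held 93102814 UMIs (750 to 946027 per barcode) and the knockout file 80090208 (500 to 298232).

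The set of droplets and the gene lists were chosen with earlier results of these data known. UMIs were summed over barcodes and scaled to 1000000 non-mt- UMIs. Genes named are the markers of the set, the mt- genes, members of fixed lists, Srsf1, and the 10 largest and 10 smallest ratios to low-mt droplets. Intervals are exact Poisson, conditional binomial or Clopper-Pearson at 95% and cover counting error only. Barcodes were thinned once to 750 UMIs (seed 1). Of 32285 gene IDs, 32235 matched GENCODE M21. WT barcodes were clustered without mt- genes on 2000 variable genes, 30 components and 15 neighbours at resolution 0.5 (scanpy 1.11.5, igraph 0.11.9, Python 3.11.15). Clusters took a name from 3 or more markers at 1.5-fold. Clusters under 50 barcodes, or with a marker UMI in under 50% of barcodes, were left unnamed, conditions set after the clusters were seen. Doublets were kept and no caller was run. The scripts were tested on simulated data.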

Additional observations from a re-analysis of the deposited data

How the results depend on the processing

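No paired analysis was possible because each genotype is 1 library and no test was made. The number of mt-rich droplets ranged from 2398 to 3640 under 5 other limits. Against low-mt droplets, 5 genes were 2-fold higher and 5 lower. With the lower UMI limit 2 were lower. With a limit of 2000 UMIs 17 were higher and 1 lower. With a lower mitochondrial limit of 1%, which left 74 low-mt droplets, 25 were lower, and with 2% 2 were higher and 0 lower. With barcodes weighted equally 9 were higher, with a minimum of 50 UMIs and 5 in each set 125 and 71, and with centred ratios 8 were higher. Without barcodes of 20 or more haemoglobin UMIs, an alternative chosen after seeing the data, 1 was lower. Leaving out barcodes of 20 or more muscle marker UMIs was also chosen after seeing the data. Against all WT barcodes, 724 were higher and 35 lower, 70 and 1 with equal weights, and 1260 and 136 with the lower minimum.

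The OXPHOS median of 0.49 was 0.33 and 0.63 with the lower and higher UMI limits, 0.27 and 0.37 with mitochondrial limits of 1% and 2%, and 0.54 with centred ratios. The haemoglobin ratio to low-mt droplets turned to 0.80 with the lower UMI limit (Hbb-bs 1.01, Hba-a1 0.57), to 2.35 with the limit of 1% (2.37, 2.19) and to 0.58 without the haemoglobin-rich barcodes (0.72, 0.32). The share of mt-rich droplets in 1 cluster was 65.2% at resolution 0.3, 53.0% at 1.0 and 65.4% with mt- genes kept. The causes of these differences were not tested. Of 76 list and gene ratios, 61 kept their sign under every alternative and 15 did not. With 1 library per genotype, no spread between animals is known.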
